A study of Mus musculus with 2 samples.

Results

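The genes described here encode the Toll-like receptor and NF-kB signalling pathway of the liver, from the receptors and their adaptors to the kinases, the NF-kB subunits and their inhibitors, the inflammasome, and cytokine and adhesion genes that NF-kB induces. They were chosen by symbol, 48 genes in all, and 43 of them were named by a probe set with a single gene symbol, out of 22180 genes named in this way. The other 5 (Irak4, Traf3, Chuk, Nfkb1 and Ripk1) were not analysed here. Each of the 43 genes was read by 1 probe set, so no member has a second probe set to check it.

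Liver RNA came from male mice of 2 genotypes, Iah1-WT (wild type, WT) and Iah1-KO (knockout of Iah1, which encodes a homologue of a yeast isoamyl acetate-hydrolysing esterase). All mice ate the same high-fat diet for 12 weeks, starting at 6 weeks of age, and food was withdrawn 4 hours before collection. RNA of 3 mice was pooled for each genotype and hybridised to 1 Affymetrix array, so there are 2 arrays, no replicate error and no test of genotype. Values are RMA levels on the log2 scale, and differences are KO minus WT. The pathway was not itself manipulated in any group, and the labels give neither the strain of the mice nor the way the knockout was made.

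Toll-like receptors are membrane proteins that recognise microbial and damage-associated molecules. Through the adaptors MyD88 and TRIF they activate kinase relays that free NF-kB from its inhibitors, and NF-kB then induces cytokines, adhesion molecules and its own inhibitors as feedback. In liver the pathway is best known in Kupffer cells, the resident macrophages, which meet gut-derived endotoxin in portal blood, while the kinases and NF-kB subunits are made in most cell types. Whole liver RNA is mostly that of hepatocytes, and fewer cells of a type cannot be told apart in it from less RNA per cell.

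The arrays had similar distributions over 41345 probe sets, with medians of 4.08 in WT and 4.10 in KO. Iah1 was at 8.59 in the WT array and 3.90 in the KO array, in the direction its labels give. An intensity filter at 4.68, the median over genes of the higher of the 2 values, left 11090 genes. The difference between probe sets of the same gene, over 326 genes with several above the filter, had a standard deviation of 0.26 (log2, per probe set; called the probe set error below). That is the only error these arrays hold, and it does not cover mice, labelling or hybridisation.

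Promoters of NF-kB target genes within the pathway are shown first, as examples that carry matches to the sequence NF-kB binds. Each is the 250 bases before a RefSeq start in GRCm38.p6, 5′ to 3′ along the gene's strand. Capitals mark matches on either strand to the kB consensus (3 G, a purine, 2 bases of any kind, 2 pyrimidines and 2 C) or to the symmetric GGAANTTCC, and the 2 patterns can overlap. Of the 3 windows of Nfkb2 and the 2 of Tnfaip3, the window with the most matched bases is shown. They stand at chr9:21015690-21015939 (plus strand) for Icam1, chr19:46304487-46304736 (plus strand) for Nfkb2, chr12:55492648-55492897 (minus strand) for Nfkbia and chr10:19015411-19015660 (minus strand) for Tnfaip3.
Icam1: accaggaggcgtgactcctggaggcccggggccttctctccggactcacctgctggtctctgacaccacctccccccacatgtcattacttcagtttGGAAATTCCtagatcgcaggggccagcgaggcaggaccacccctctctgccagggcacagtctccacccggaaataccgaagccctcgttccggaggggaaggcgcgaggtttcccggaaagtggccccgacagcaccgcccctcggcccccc
Nfkb2: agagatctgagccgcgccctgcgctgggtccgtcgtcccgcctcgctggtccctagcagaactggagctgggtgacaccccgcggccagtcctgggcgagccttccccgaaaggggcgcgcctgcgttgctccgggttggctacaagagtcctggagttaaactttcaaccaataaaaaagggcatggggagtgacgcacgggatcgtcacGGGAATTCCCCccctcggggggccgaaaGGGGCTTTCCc
Nfkbia: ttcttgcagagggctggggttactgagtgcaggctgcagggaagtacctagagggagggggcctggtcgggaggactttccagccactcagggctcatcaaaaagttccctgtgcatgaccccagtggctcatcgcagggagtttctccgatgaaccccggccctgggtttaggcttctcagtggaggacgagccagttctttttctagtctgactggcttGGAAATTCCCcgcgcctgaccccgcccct
Tnfaip3: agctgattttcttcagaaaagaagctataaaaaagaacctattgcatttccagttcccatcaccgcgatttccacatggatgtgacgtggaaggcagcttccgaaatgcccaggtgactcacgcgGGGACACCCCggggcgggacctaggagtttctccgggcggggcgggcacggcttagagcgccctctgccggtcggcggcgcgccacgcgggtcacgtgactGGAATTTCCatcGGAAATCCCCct

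The kB consensus occurred in 7.25% of 32851 RefSeq promoter windows of this length and GGAANTTCC in 0.813%, or in at least 1 window of 8.23% and 0.944% of 27025 genes. RefSeq promoters were at hand for 39 of the 48 genes (52 windows), and 12 of these genes (30.8%) held the kB consensus and 4 (10.3%) GGAANTTCC. Icam1 and Nfkbia share the letters GGAAATTCC, which begin 153 bases before the start in Icam1 and 29 bases before it in Nfkbia. The differences of the 4 genes were -0.74 for Icam1, -0.42 for Nfkb2, 0.04 for Nfkbia and -0.05 for Tnfaip3. Icam1 was shown because it was past 1.5-fold, and Nfkb2 and Tnfaip3 were added after their values were seen. Whether the letters go with the differences was not tested. A match is a description of the letters, and binding was not measured.

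The median member was lower in the KO array by a small amount, with members on both sides of 0. Of the 43 genes 35 passed the filter and 29 were above it in both arrays. Among the 35, 23 lay below 0 and 12 above (65.7% below, against 55.7% of all genes above the filter) and the median difference was -0.19, against -0.02 for all genes. At 1.5-fold or more (0.585 on the log2 scale), 2 of the 35 were lower, a share of 5.71% against 2.45% of all genes, and none was higher, against 1.47% of all genes. At a lower limit of 0.322 on the log2 scale, 9 of the 35 were lower, a share of 25.7% against 10.4% of all genes, and none was higher, against 6.62%. Of these 9, 4 passed the filter through WT alone. Of the 9, Casp1, Tlr7, Tab1, Cd180, Nfkb2, Pycard and Il1b lay in the dimmest of 4 equal signal groups. In that group 5.48% of genes were lower at 1.5-fold and 18.2% at 0.322.

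A gene that passed through the WT value alone had to be lower in KO, so the figures over all 43 members are given as well. Without the filter 28 of 43 lay below 0 (51.1% of all 22180 genes did), with a median of -0.18 against -0.01 for all genes. On this wider base 3 members were lower at 1.5-fold (2.60% of all genes were), the third being Irak3, and 11 at 0.322 or more (11.2% of all genes were). With the filter raised to the 75th percentile of genes, at 6.52, only 15 members were left, none was past 1.5-fold, and their median was -0.03 against -0.02 for all genes. The spread between the arrays was wider for dim genes, with a standard deviation of differences of 0.36 in the dimmest of 4 equal signal groups and 0.16 in the brightest.

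**Figure D1:**
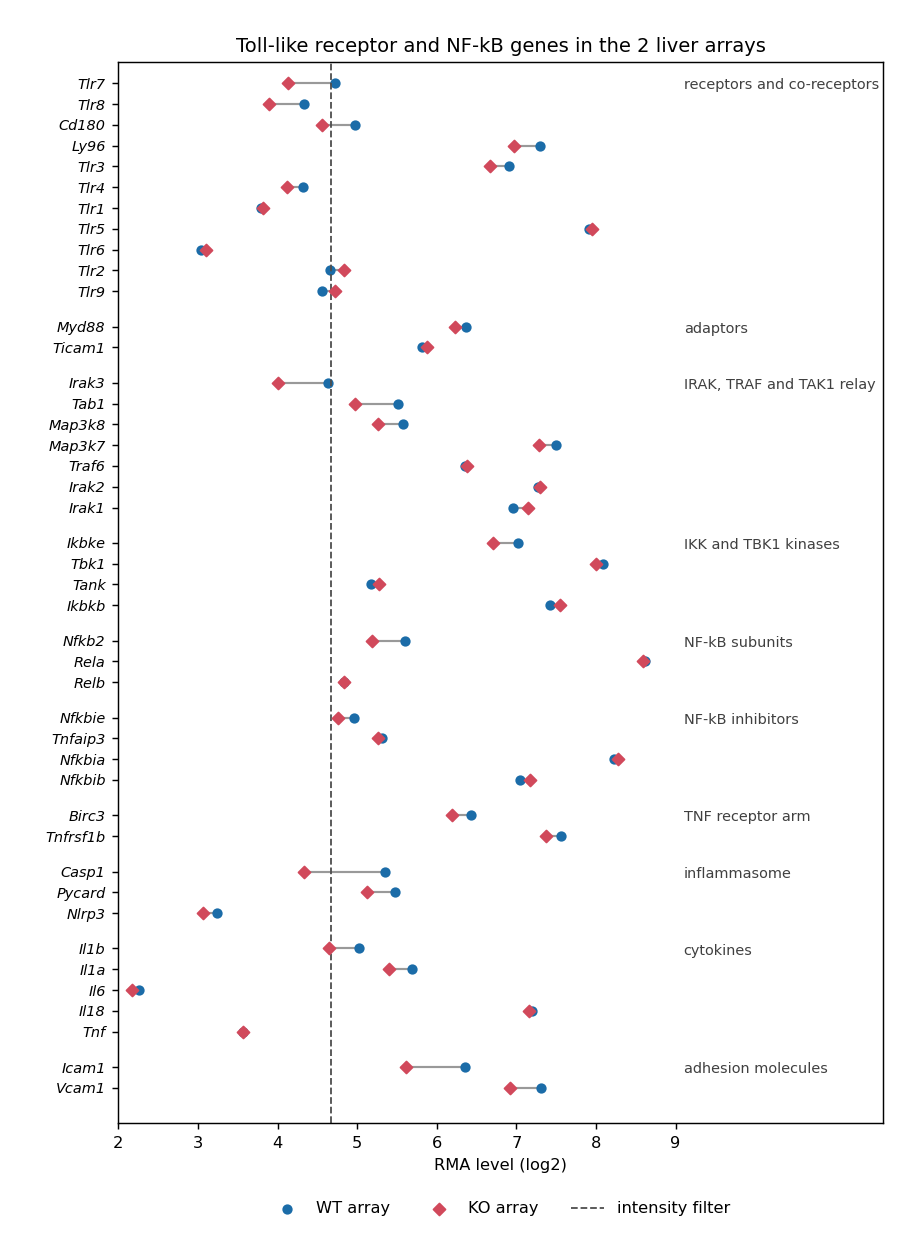
RMA level (log2) of each of the 43 measured members in the WT array (blue circles) and the KO array (red diamonds), joined by a line and grouped by role, with the intensity filter of 4.68 dashed. Casp1 (5.35 to 4.33) and Icam1 (6.36 to 5.62) have the longest lines among members above the filter, while Rela, Relb and Tnfaip3 nearly coincide.

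Among the receptors above the filter, the RMA values of Tlr7, Cd180 and Ly96 differed by more than the probe set error, each lower in KO. Tlr7 and Cd180 passed through WT alone, so they had to be lower, and both lay in the dimmest signal group. Tlr7, an endosomal receptor for single-stranded RNA, measured 4.72 in WT and 4.13 in KO. The KO value was under the filter and the WT value just over it, so the difference of -0.584, just short of the 1.5-fold limit, is shown only as at least 1.03-fold against the filter. Cd180, a Toll-like receptor homologue of B cells and macrophages that works with MD-1, differed by -0.42 between 4.97 in WT and 4.55 in KO. It too was under the filter in KO, which leaves at least 1.23-fold. Cd180 ranked 329 from the lowest among the 2773 genes of the dimmest signal group, where the standard deviation of differences was 0.36. Ly96 encodes MD-2, the protein through which TLR4 binds endotoxin, and it was above the filter in both arrays, at 7.29 in WT and 6.97 in KO (1.24-fold lower in KO). Tlr3, the receptor for double-stranded RNA, differed by -0.25 (6.91 in WT and 6.66 in KO), within the probe set error.

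Tlr5, the flagellin receptor, was at 7.91 in WT and 7.94 in KO. Tlr2, which recognises bacterial lipoproteins, was at 4.66 in WT and 4.83 in KO, and Tlr9, the receptor for unmethylated CpG DNA, was at 4.56 in WT and 4.73 in KO. Both were under the filter in WT and differed by 0.17, less than the probe set error. The other 4 receptors were under the filter in both arrays. Among them Tlr4, the endotoxin receptor, was at 4.33 in WT and 4.11 in KO, and Tlr8, a receptor for single-stranded RNA, was at 4.33 in WT and 3.89 in KO. Tlr1 and Tlr6, the partners of TLR2, were at 3.79 and 3.03 in WT and at 3.81 and 3.10 in KO. Of the 7 receptors above the filter, 4 lay below 0 (57.1%, against 55.7% of all genes) and the median was -0.25. Over all 11 receptors 6 lay below 0 (54.5%, against 51.1% of all genes with no filter) with a median of -0.21.

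Genes outside the members also act in endotoxin recognition (Cd14 and Lbp) or with CD180 (Ly86). Cd14, which hands endotoxin to TLR4 and MD-2, was at 4.98 in WT and 4.39 in KO, under the filter in KO and at least 1.23-fold lower. Lbp, the hepatocyte-derived endotoxin-binding plasma protein, differed by -0.25 (9.36 in WT and 9.11 in KO). Ly86, which encodes MD-1, the partner of CD180, was at 7.01 in WT and 6.42 in KO, past the 1.5-fold limit with a difference of -0.59. Of these 3 genes, Cd14 passed the filter through WT alone, and Lbp was chosen after its value was seen. Other pathway genes outside the members went the other way. Cnpy3 was at 6.93 in WT and 7.16 in KO. Ticam2 was at 3.61 in WT and 3.85 in KO, under the filter in both arrays. Cnpy3 and Ticam2 were also chosen after their values were seen.

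The adaptors differed little. Myd88, used by all Toll-like receptors but TLR3, was at 6.37 in WT and 6.23 in KO. Ticam1, which encodes TRIF, the adaptor of TLR3 and TLR4, was at 5.82 in WT and 5.88 in KO. Both differences, -0.15 and 0.06, were smaller than the probe set error.

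In the relay from receptor to kinase, members went both ways. Irak3 encodes IRAK-M, a brake on Toll-like receptor signalling in macrophages, and was at 4.63 in WT and 4.01 in KO. Its difference of -0.62 was past 1.5-fold, but both values were under the filter. Tab1, an activating partner of the kinase TAK1, was at 5.52 in WT and 4.97 in KO, 1.46-fold lower in KO with both values above the filter. Map3k7, which encodes TAK1 itself, was at 7.49 in WT and 7.28 in KO, and Map3k8, the kinase TPL2, was at 5.58 in WT and 5.26 in KO (1.24-fold lower). Irak1, which MyD88 recruits, was higher in KO, at 6.96 in WT and 7.14 in KO, and it had the largest difference above 0 of the members, at 0.18. Irak2 was at 7.27 and 7.30 and Traf6, the ubiquitin ligase downstream of the IRAKs, at 6.36 and 6.38 in WT and KO. Of the 6 relay genes above the filter, 3 lay below 0 and 3 above.

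The kinases that act on the inhibitors of NF-kB and on interferon regulatory factors were close between the arrays, with 1 exception. Ikbke, an inducible kinase of this family, was at 7.02 in WT and 6.70 in KO, with a difference of -0.317 just short of the lower limit. Ikbkb, the main catalytic kinase of the canonical pathway, was at 7.42 in WT and 7.55 in KO, and Tbk1, which phosphorylates IRF3, was at 8.09 in WT and 7.99 in KO. Tank, a scaffold of TBK1, was listed at 5.17 for WT and 5.28 for KO. The median of these 4 genes was 0.00 (0.0032).

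Among the NF-kB subunits, Nfkb2 alone of the 3 measured differed by more than the probe set error. Nfkb2 encodes p100, the precursor of the p52 subunit of the noncanonical pathway, and is itself induced by NF-kB. It was at 5.60 in WT and 5.18 in KO, 1.34-fold lower in KO. Nfkb2 ranked 330 from the lowest among the 2773 genes of the dimmest signal group, where the standard deviation of differences was 0.36. Rela, the p65 subunit that activates most targets, was at 8.62 in WT and 8.59 in KO, and Relb, the partner of p52, was at 4.83 in WT and 4.84 in KO.

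Inhibitors of NF-kB, among them the feedback targets Nfkbia, Nfkbie and Tnfaip3, did not share a direction. Nfkbia, which encodes IkB-alpha and holds the kB match next to its start, was at 8.23 in WT and 8.27 in KO. Nfkbib was at 7.05 in WT and 7.17 in KO and Nfkbie at 4.96 in WT and 4.75 in KO. Tnfaip3, which encodes the ubiquitin-editing enzyme A20, was at 5.31 in WT and 5.27 in KO. All 4 differences, from -0.21 to 0.12, were within the probe set error. In the arm of the TNF receptors, Tnfrsf1b, which encodes TNF receptor 2, was at 7.56 in WT and 7.37 in KO, and Birc3, an inhibitor of apoptosis induced by NF-kB, was at 6.44 in WT and 6.19 in KO and so differed by -0.25.

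By RMA values the largest difference of the members was in an inflammasome gene. Casp1 encodes caspase-1, the protease that matures interleukin-1 beta and interleukin-18. It measured 5.35 in WT and 4.33 in KO, and the KO value lay under the filter. Between the RMA values the difference was -1.02 (2.02-fold lower in KO), and against the filter it was at least 1.59-fold. Pycard, which encodes the adaptor ASC that brings caspase-1 to the sensor, was above the filter in both arrays, at 5.48 in WT and 5.13 in KO (1.27-fold lower). The sensor gene Nlrp3 was under the filter in both, at 3.24 in WT and 3.07 in KO.

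The cytokine genes were lower or level. Il1b, which encodes the substrate of caspase-1, differed by -0.38 (5.03 in WT and 4.64 in KO), and with KO under the filter it is shown only as at least 1.27-fold lower. Il1a, a related cytokine that acts through the same receptor, differed by -0.28 (5.68 in WT and 5.40 in KO). Il18, the other substrate of caspase-1, was at 7.19 in WT and 7.16 in KO. Tnf and Il6 were under the filter in both arrays, at 3.56 and 2.26 in WT and at 3.57 and 2.18 in KO, so the arrays do not show the level of either cytokine.

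Both adhesion molecule genes were lower in KO. Icam1, the leukocyte adhesion molecule of endothelium that NF-kB induces, was at 6.36 in WT and 5.62 in KO. With both values above the filter it was the 1 member past 1.5-fold that was not bounded by the filter, at 1.67-fold lower in KO. It ranked 132 from the lowest among 11090 genes and 29 among the 2772 genes of its signal group, where the standard deviation of differences was 0.28. Vcam1, its counterpart for integrin alpha 4, was at 7.31 in WT and 6.93 in KO, 1.31-fold lower, and ranked 118 among the 2772 genes of its own signal group, where the standard deviation was 0.20.

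**Figure D2:**
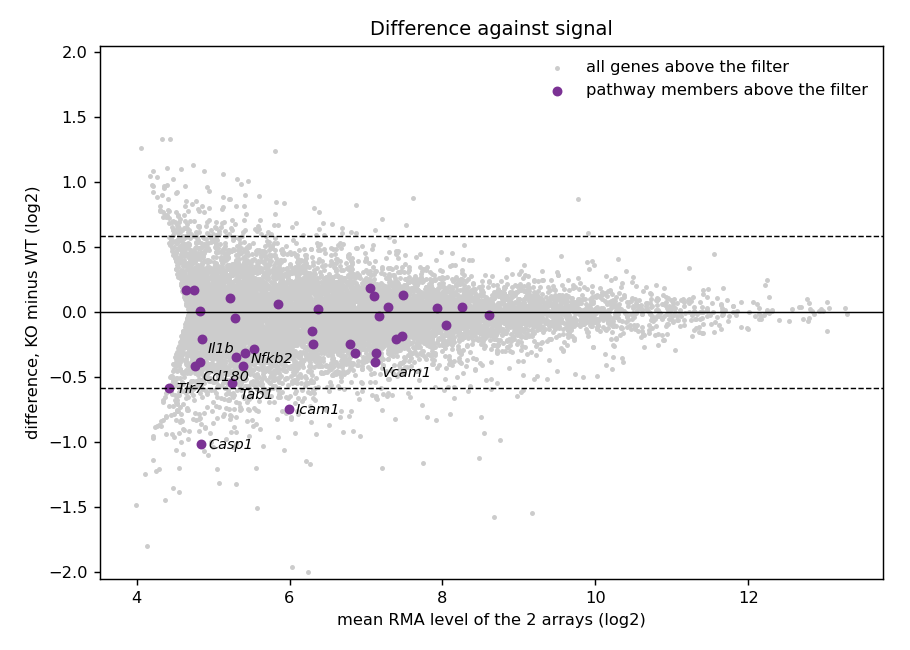
Difference (KO minus WT, log2) against the mean RMA level of the 2 arrays for 11090 genes above the filter (grey) and the 35 members among them (purple), with 1.5-fold dashed and the 8 lowest members named; Iah1, at -4.69, is drawn at the lower edge. No member lies above 0.18, Casp1 and Icam1 lie below the lower dashed line, and Tlr7 lies almost on it.

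The members were also split by where they are usually made, in lists drawn up with earlier results of these data known. The list of broadly expressed genes had 10 measured, such as Rela, Ikbkb, Tbk1 and Map3k7, with a median of 0.04. Of these 4 lay below 0 (40%, against 55.7% of all genes above the filter). Of the 18 leukocyte-enriched genes, 11 passed the filter, but only 5 of the 11 were above it in both arrays. Among the 11, 9 lay below 0 (81.8%, against 55.7% of all genes) and the median was -0.32. The genes lower by 0.322 or more were Casp1, Tlr7, Cd180 and Il1b, which passed through WT alone and so had to be lower, and Pycard. These 5 were 45.5% of the 11, against 10.4% of all genes. All of them lay in the dimmest signal group, where 18.2% of genes were lower by that much. Over all 18, 13 lay below 0 (72.2%, against 51.1% of all genes with no filter) and the median was -0.30. In the broadly expressed list Tab1 was the 1 gene lower by 0.322 or more (10%, against 10.4% of all genes). In the leukocyte-enriched list Tlr2 and Tlr9 were the 2 genes above 0 with a value above the filter. The 15 members in neither list, among them Icam1, Vcam1 and Nfkb2, had 14 above the filter, with a median of -0.18. Of these 10 lay below 0 (71.4%, against 55.7% of all genes).

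Markers of the cells that carry much of this pathway were lower in the same array. All 19 Kupffer cell and macrophage markers lay below 0, against 51.1% of all genes with no filter, and 17 passed the filter with a median of -0.47. Cd14, 1 of the 17, passed through WT alone and is also counted among the other pathway genes below. The summed linear level of the list was 3191 in WT and 2305 in KO, a ratio of 0.722. The largest differences were those of C1qb at -0.81, Fcgr1 at -0.73 and Vsig4 at -0.71. C1qa at -0.22 and C1qc at -0.09, by contrast, were within the probe set error. Only Itgam and Ccr2, both of infiltrating monocytes, were under the filter in both arrays. Each of the 16 sinusoidal endothelium markers was lower too, at a median of -0.49, led by Bmp2 at -0.93, Lyve1 at -0.83 and Tek at -0.66. Their summed level was 4117 in WT and 2903 in KO, a ratio of 0.705. For comparison, the summed level of the 18 leukocyte-enriched members was 777 in WT and 639 in KO, a ratio of 0.823. Of these 18, 7 were under the filter in both arrays and add background to the sums, and the 5 above it in both gave 489 in WT and 407 in KO, a ratio of 0.833. The sum of the 10 broadly expressed members was 1493 in WT and 1482 in KO, a ratio of 0.993. The part of cell content in the differences of the members was not tested.

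Hepatocyte markers were level, with a median of -0.01 over 11 genes and a summed level of 52718 in WT and 52280 in KO, and their largest differences were -0.17 for Serpina1b, -0.13 for Cps1 and 0.10 for Apob. Stellate cell markers had a median of -0.16 over 10 genes, with Des (3.75 in WT, under the filter, and 4.68 in KO, at it, so that no fold is shown), Lrat at -0.52 and Ngfr at -0.39, and a summed level of 2101 in WT and 1902 in KO. None of 9 T and NK cell markers or 6 B and plasma cell markers passed the filter in either array. Of 9 neutrophil markers 1 passed, Csf3r at 0.16, and of 5 dendritic cell markers 1 passed, Cd209a at 0.29. With no filter all 5 dendritic cell markers lay above 0, with a median of 0.24, but 4 of them were under the filter in both arrays. Below 0 with no filter were 5 of 9 T and NK, 4 of 6 B and plasma and 5 of 9 neutrophil markers, against 51.1% of all genes. The summed levels of these 4 lists were 117, 87.9, 120.2 and 119.7 in WT and 118.8, 85.4, 119.3 and 144 in KO.

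**Figure D3:**
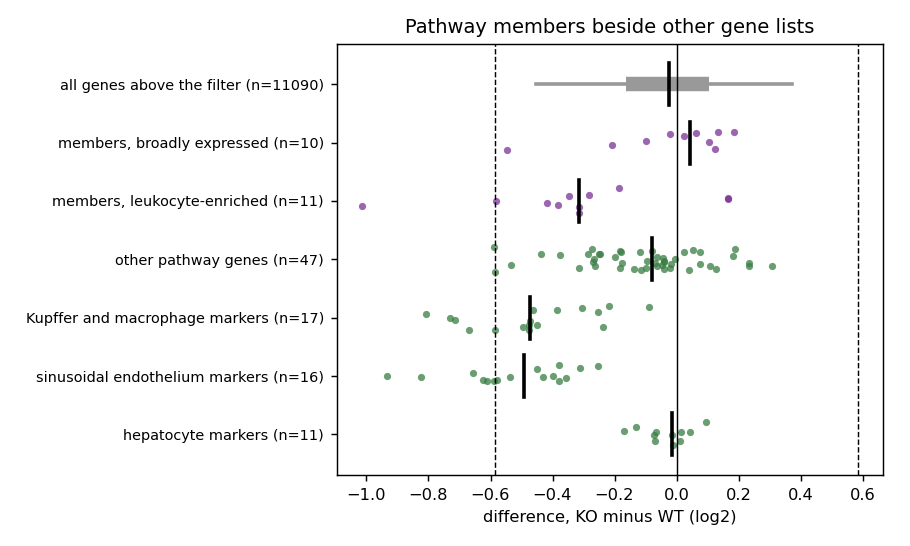
Difference (KO minus WT, log2) of single genes above the filter (points) in 2 lists of members (purple) and 4 other lists (green), with the list median as a black bar and 1.5-fold dashed; the grey bars give the middle 50% and 90% of all 11090 genes. The leukocyte-enriched members centre on -0.32 between the broadly expressed members at 0.04 and the Kupffer cell and endothelial markers at -0.47 and -0.49. Both lists of members were drawn up with earlier results of these data known.

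The other genes of the pathway had a median nearer 0, though a larger share of those above the filter lay below 0. Of 69 listed, 65 were measured and 47 passed the filter. Among these 35 lay below 0 (74.5%, against 65.7% of the members and 55.7% of all genes above the filter) and the median was -0.08. Of the 47, 1 was lower by 1.5-fold (Ly86, 2.13% against 2.45% of all genes) and none was higher (1.47% of all genes were). Over all 65, with no filter, the median was -0.05 and 40 lay below 0 (61.5%, against 51.1% of all genes). At 1.5-fold 3 were lower and 3 higher, against 2.60% and 2.58% of all genes. The 5 of these other than Ly86 were under the filter in both arrays (Aim2 and Il33 lower, Nfkbid, Sarm1 and Nos2 higher). After Ly86 and Cd14, the largest differences were those of Fadd, the death receptor adaptor, at -0.53 (5.83 in WT and 5.29 in KO) and of Il1r1, the interleukin-1 receptor, at -0.44 (8.64 in WT and 8.20 in KO). Il1r1 ranked 42 from the lowest of the 2773 genes in the brightest signal group. Tirap, the bridging adaptor of TLR2 and TLR4, was at -0.37, the linear-ubiquitin protease gene Otulin at -0.31 and Irf7, a transcription factor of the interferon arm, at -0.28. Tradd, the adaptor of TNF receptor 1, was the member of this list with the largest difference above 0, at 0.31, and Birc2 was at -0.27. Rel, which encodes the subunit c-Rel, was at 6.07 in WT and 6.03 in KO.

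Neighbouring response programmes were set beside the pathway. They hold no member, but Irf7 (interferon-stimulated) and Lbp (acute phase) are also counted among the other pathway genes. Interferon-stimulated genes had a median of -0.18 over 20 genes above the filter, with 16 below 0, 1 lower at 1.5-fold (Ifit3) and none higher. Chemokine genes had a median of -0.03 over 17 genes, with 9 below 0, 2 lower (Cxcl13 and Cxcl16) and 1 higher (Ccl11, under the filter in WT). Acute phase genes had a median of -0.05 over 21 genes, with 15 below 0, 4 lower (Mt2, Orm3, Mt1 and Saa2) and 1 higher (Saa3). Of all genes above the filter 55.7% lay below 0, 2.45% were lower and 1.47% higher at 1.5-fold. The genes named from these lists were chosen after their values were seen. Whether the members differ from any of these lists was not tested.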

How the data were processed

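The authors deposited log2 values, 1 for each probe set on each array, made by RMA with Affymetrix Expression Console 1.3.0, per the submitters' processing notes. RMA removes background, brings the arrays' distributions together and combines the probes of each set. This compresses the differences of dim probe sets and can remove a general shift between genotypes. The deposited distributions were close but not equal, with medians of 4.08 in WT and 4.10 in KO. No source used here gives the genome build of the probe sets.

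The platform annotation paired 23521 of 41345 probe sets with 1 gene symbol, 1814 with several and 16010 with none, and only the first were used. A gene's value was the mean log2 over its probe sets. Genes entered where the higher array reached the median, and were counted at 1.5-fold and at 0.322 on the log2 scale. A fold of a gene with 1 array under the filter was taken against the filter, which is no detection limit. With 1 array per genotype no test was made, and the number of arrays limits the precision. Linear levels are 2 to the power of the RMA values. The counting step was run on simulated differences of about 2-fold, well past the limit. That checks the step itself and not the counts of dim genes or of genes near the limit.

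Members, lists and rules were chosen with earlier results of these data known. The rule for named genes was every measured member; of the other pathway genes those past 1.5-fold and the 8 largest differences; and 3 markers per list. Lbp, Cnpy3, Rel, the other pathway genes under the filter and the promoters of Nfkb2 and Tnfaip3 were added after their values were seen. The markers C1qa and C1qc were added in the same way. Promoters are RefSeq's, of GRCm38.p6. Python 3.11.15, pandas 2.3.3 and statsmodels 0.14.6 (loess) were used.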

Additional observations from a re-analysis of the deposited data

How the results depend on the processing

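No paired analysis was possible because each genotype has 1 array. The alternatives were no intensity filter, a filter at the 75th percentile, the brightest probe set of each gene, subtraction of the median difference, quantile normalization again, a loess fit of the difference on signal, and other fold limits. Those for role groups, the broad and leukocyte-enriched lists and the neighbouring programmes were added after seeing the data. The count of members lower in KO, 2 at 1.5-fold, was 0 with the filter at the 75th percentile, where Casp1 and Icam1 are left out by construction, 9 at a limit of 0.322 on the log2 scale and 1 at 2-fold. It was 3 with no filter, after quantile normalization and after the loess fit. Tlr7 was past 1.5-fold in 2 of its 5 settings with a value, at -0.56 to -0.61. No member was higher at 1.5-fold in these settings. The median of the members stayed below 0 in all 7 settings, from -0.19 to -0.03, and the dimmer members are left out where it is nearest 0. The inflammasome median of -0.68, over Casp1 and Pycard only, was -0.35 with no filter, which adds Nlrp3. Casp1 passed the filter through WT alone and so had to be lower. The medians of the other lists moved by less than the probe set error of 0.26. Many of these medians are themselves smaller in size than that error, so this does not show that they are stable. Those of the adaptors, relay, kinases, subunits, inhibitors, hepatocyte markers and chemokines had values on both sides of 0. The leukocyte-enriched median ranged from -0.32 to -0.25 and the broad one from 0.04 to 0.09. With 1 probe set per member, the filters and the brightest probe set cannot move a single member (83 of 188 values). The other 105, from the 3 rescalings, moved by 0.05 at most, and of 35 members Rela and Il18 had values on both sides of 0.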
